A study of Mus musculus with 4 samples.

Results

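The genes described here are 39 regulators of cell death and survival, chosen by name from the BCL2 family, the caspases and their inhibitors, the adaptors of death receptors and the p53 pathway. Of these, 36 were measured among 18193 genes, and 3 (Bax, Ripk1 and Trp53) were not analysed here. Each gene was read from 1 probe set, the one with the highest mean over the 4 arrays, so the choice did not use the group labels. The cells were common lymphoid progenitors (CLP), the bone marrow progenitors of B, T and natural killer cells, sorted from adult C57Bl6 mice aged 8 to 12 weeks. There were 2 CLP_RAGhigh and 2 CLP_RAGlow samples of 2000 cells each, and the sample descriptions name the sorted fractions CLPGFPhigh and CLPGFPlow. The labels give no genotype and no treatment beyond this. They do not describe the GFP reporter, and do not say whether animals were pooled. The replicates are called biological, with no word on separate animals or sorts, and the p-values therefore speak only of the variation among these 4 arrays, which may be technical. The comparison addresses whether survival and death genes differ between CLP that express much and little of the RAG recombinase.

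Apoptosis through the mitochondrion is set by the BCL2 family. Survival proteins such as BCL2 and MCL1 hold back the pore-forming effectors BAX and BAK, and BH3-only proteins such as BIM and BMF relieve that block. An open outer membrane releases cytochrome c, which joins APAF1 into the apoptosome and activates caspase-9. Lymphoid progenitors are known to depend on BCL2 and MCL1, since interleukin-7 signalling keeps them alive largely through these proteins. Death receptors act by another route, through FADD and caspase-8, which FLIP (Cflar) restrains and which RIPK3 and MLKL replace in necroptosis.

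The sort and the arrays were checked first. Rag1 had log2 intensities of 10.92 and 10.62 on the CLP_RAGhigh arrays and 7.72 and 8.53 on the CLP_RAGlow arrays. Its difference (CLP_RAGhigh minus CLP_RAGlow) was 2.65 ± 0.34 (SE), with a limma adjusted p of 0.256 over all genes. Rag1 thus did not pass the adjusted threshold used below, although its groups did not overlap. The CLP markers Il7r, Flt3, Kit, Cd93 and Cd27 were all above the median of the probe sets in both groups, while all 4 measured mature B-cell markers, 2 of 5 T-cell markers and 4 of 6 macrophage markers were dim, that is, with a mean in at least 1 group below a log2 intensity of 3.88, the median of all probe sets. Of the macrophage markers, Csf1r was bright and lower in CLP_RAGhigh, with 6.79 and 8.26 against 9.31 and 9.54, while the sums of the 6 genes ran from 22.1 to 25.6. Arrays also stood apart in other marker lists. The 3 measured erythroid genes summed to 15.8 and 13.7 in CLP_RAGhigh and to 13.7 and 10.9 in CLP_RAGlow. Among them Klf1 differed by 2.02 ± 0.62 without overlap, and the globin gene Hba-a1 was dim. The 7 granulocyte genes summed to 55.2 and 55.4 on the CLP_RAGhigh arrays but to 59.4 and 33.9 on the CLP_RAGlow arrays, with replicate 2 the low one. Mpo and Elane of that list did not share this, with 11.03 and 4.01 on CLP_RAGlow replicate 2 against 10.70 and 3.91 on replicate 1. The 8 handling and stress genes summed to 55.9 on CLP_RAGhigh replicate 1 and to between 38.2 and 42.2 on the other 3 arrays. The 11 G2 and M phase genes summed to 74.4 and 81.3 in CLP_RAGhigh and to 82.9 and 91.5 in CLP_RAGlow. Of them, 5 had both CLP_RAGhigh arrays below both CLP_RAGlow arrays, as did 15.8% of all genes. The others overlapped, and Aurka and Cenpe were higher by mean in CLP_RAGhigh, by 0.29 and 0.08. The part of these differences in the results below was not tested, and values without 1 array are given beside those named genes whose difference depends most on it.

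The death and survival genes showed no common shift toward either group. By mean, 19 were higher and 17 lower in CLP_RAGhigh, with a median log2 difference of 0.02 (CLP_RAGhigh minus CLP_RAGlow, as in every difference below) against 0.003 for all 18193 genes. With limma, 0 of the 36 genes passed an adjusted p of 0.05 over all genes, as did 0% of the genes tested. At an unadjusted p under 0.05, 1 gene was higher in CLP_RAGhigh (Casp9) and 1 lower (Bcl2), where 2.35% of all genes were higher and 2.94% lower. The groups did not overlap for 15 of the 36 genes. In 9 of them CLP_RAGhigh was the higher group on every array, as it was for 15.4% of all genes, and in 6 it was the lower, as it was for 15.8% of all genes. The smallest two-sided p that an exact permutation of 2 against 2 arrays can give is 0.333, so no gene could be tested that way. A p above the threshold does not show that the groups are alike, and Rag1 did not pass the adjusted threshold either.

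**Figure D1:**
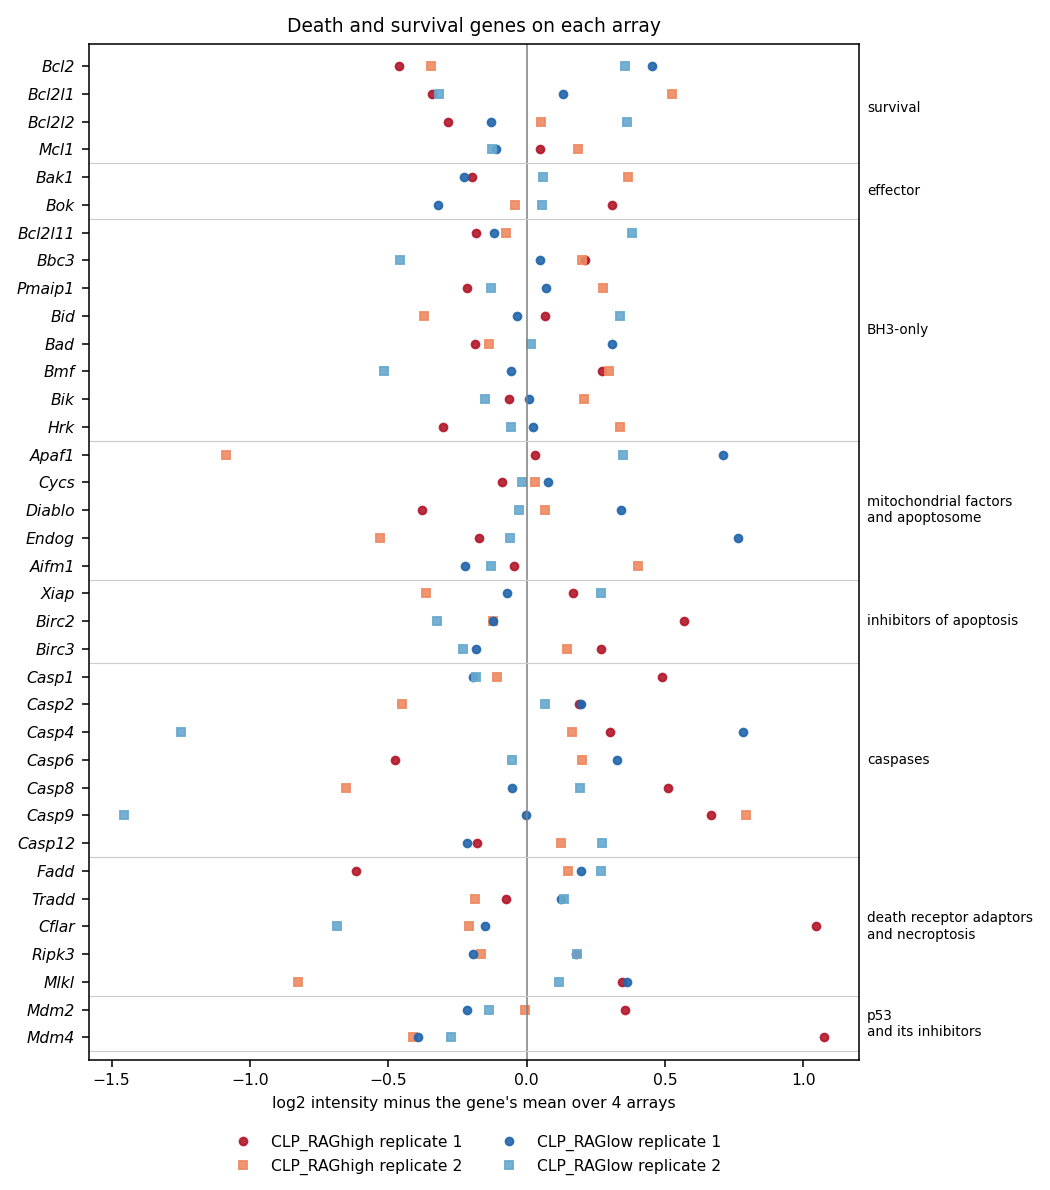
Log2 intensity of each gene on each array, minus that gene's mean over the 4 arrays; rows are genes grouped by role, and each symbol is 1 array. Bcl2 shows both CLP_RAGhigh arrays at the left and both CLP_RAGlow arrays at the right, while Mdm4 and Cflar are set apart by CLP_RAGhigh replicate 1 and Casp9 in part by CLP_RAGlow replicate 2.

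The 4 survival genes of the BCL2 family did not move together, as Bcl2 was lower and Mcl1 slightly higher in CLP_RAGhigh. Bcl2, the founding member of the family, had log2 intensities of 8.52 and 8.63 on the CLP_RAGhigh arrays and 9.43 and 9.33 on the CLP_RAGlow arrays. The groups did not overlap, and the difference was -0.81 ± 0.26 (SE, n = 2 per group), or 1.75-fold lower in CLP_RAGhigh (limma adjusted p = 0.869). It ran from -0.86 to -0.75 when any 1 array was left out. All 5 probe sets assigned to Bcl2 had a lower mean in CLP_RAGhigh, and 4 of them had both CLP_RAGhigh arrays below both CLP_RAGlow arrays, where 15.2% of all probe sets did. Probe sets of 1 gene share the RNA and the arrays and are not replicates of each other. In RNA from a sorted population, fewer cells that express a gene and less RNA per cell cannot be told apart.

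The size of the Bcl2 difference depended on the probe set. One probe set had 5.21 and 4.94 in CLP_RAGhigh against 8.04 and 7.47 in CLP_RAGlow, a difference of -2.68 ± 0.39. With each probe set fitted alone, a choice made after seeing the data, this one had the smallest limma adjusted p of the 5, 0.576 over all 34945 probe sets. Another differed by -2.95 ± 0.99, and its CLP_RAGhigh arrays were far apart, at 5.71 and 2.77. The remaining ones differed by -1.17 ± 0.37 and by -0.12 ± 0.43, and the groups overlapped in the last alone. The average over the 5 was -1.55. The position of these probe sets in the transcript is not given here. The ratio of 3′ to 5′ Actb probe sets, a measure of RNA quality and amplification, was 16.2 and 9.62 on the CLP_RAGhigh arrays and 13.5 and 24.5 on the CLP_RAGlow arrays, and its part in the spread among probe sets was not tested.

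Mcl1, the short-lived survival protein, had 10.82 and 10.96 in CLP_RAGhigh and 10.66 and 10.64 in CLP_RAGlow. The groups did not overlap, but the difference was small, at 0.24 ± 0.16. Its 6 probe sets gave differences between -0.01 and 0.42, of which 5 were above 0. In 4 of these probe sets the groups did not overlap, with CLP_RAGhigh higher. The background share in that direction was taken over genes only, at 15.4%, and not over all probe sets. The probe set used for Mcl1 is marked as cross-hybridising, as are others of the separated ones. The brightest one not so marked overlapped between the groups, with 10.41 and 9.51 against 9.75 and 9.48, a difference of 0.35 ± 0.35. Bcl2l1, which encodes BCL-XL, had 7.33 and 8.20 in CLP_RAGhigh and 7.80 and 7.36 in CLP_RAGlow. Its groups overlapped, and the difference of 0.18 ± 0.43 turned to -0.25 without CLP_RAGhigh replicate 2 and to -0.04 without CLP_RAGlow replicate 2. Bcl2l2, which encodes BCL-W, differed by -0.23 ± 0.38. The median of the 4 genes was -0.02, with 2 higher and 2 lower.

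**Figure D2:**
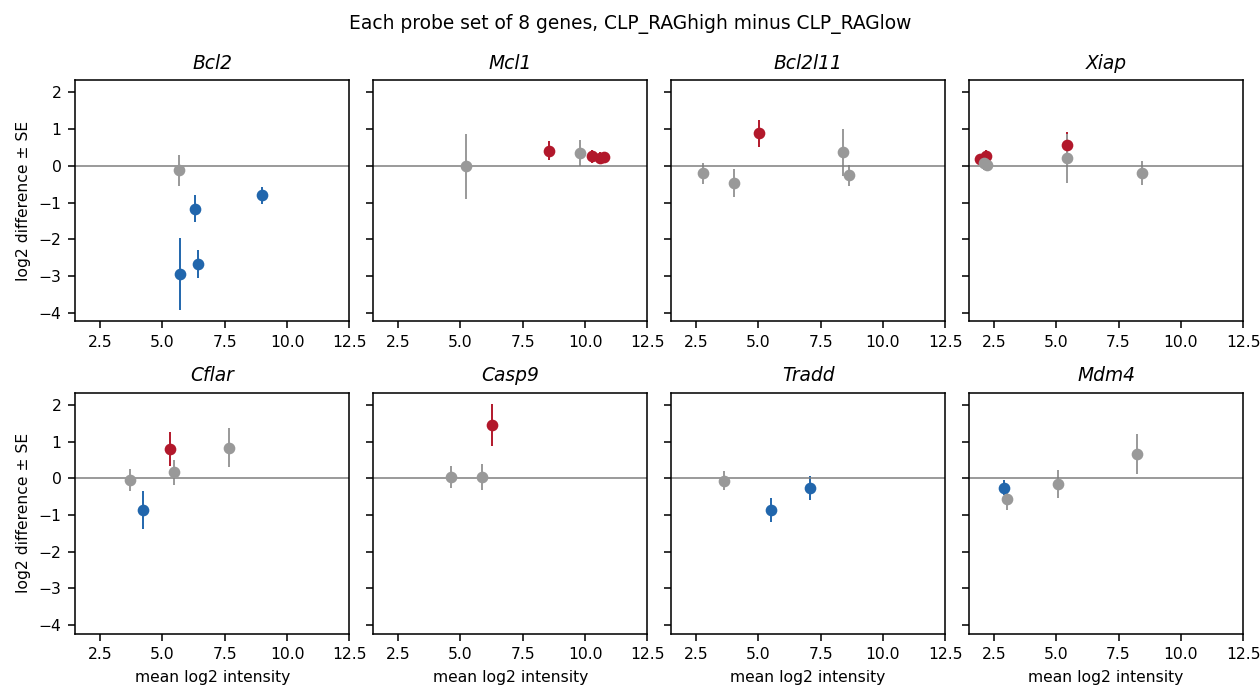
Log2 difference between the groups (CLP_RAGhigh minus CLP_RAGlow, ± SE from limma) of every probe set of 8 genes, against its mean log2 intensity; red and blue mark probe sets with both CLP_RAGhigh arrays above or below both CLP_RAGlow arrays, and grey those that overlap. All 5 Bcl2 probe sets lie below 0, from -2.95 to -0.12, while the probe sets of Bcl2l11, Xiap, Cflar and Mdm4 lie on both sides of 0.

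The genes that promote death within the BCL2 family had small differences in both directions. Over the 10 measured BH3-only and effector genes the median was 0.10, with 7 higher and 3 lower by mean in CLP_RAGhigh. Among the effectors, Bak1 had 5.23 and 5.79 in CLP_RAGhigh and 5.20 and 5.49 in CLP_RAGlow. Bok, a less studied pore-forming relative, had 6.58 and 6.23 against 5.95 and 6.33. Both overlapped between the groups, with differences of 0.17 ± 0.37 and 0.26 ± 0.37, and they became -0.11 for Bak1 without CLP_RAGhigh replicate 2 and 0.08 for Bok without CLP_RAGlow replicate 1.

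Of the BH3-only genes, Bmf and Bbc3 had both CLP_RAGhigh arrays above and Bad had both below. Bmf, whose protein is bound to the cytoskeleton until it is released, had 7.77 and 7.80 in CLP_RAGhigh and 7.44 and 6.98 in CLP_RAGlow, a difference of 0.57 ± 0.35 that was 0.34 without CLP_RAGlow replicate 2. The 2 other Bmf probe sets were dim and overlapped between the groups, and the only one not marked as cross-hybridising gave -0.08. Bbc3, which encodes the p53 target PUMA, had 5.17 and 5.15 against 5.005 and 4.499. Its difference of 0.41 ± 0.33 was 0.16 without CLP_RAGlow replicate 2, and 0.20 with an offset of 32 added before log2. Bad, which growth factor signals hold inactive by phosphorylation, had 6.75 and 6.80 against 7.24 and 6.95. Its difference of -0.32 ± 0.35 was smaller than its SE, and -0.18 without CLP_RAGlow replicate 1, while its other probe set was separated in the same direction, at -0.67.

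Bcl2l11 encodes BIM, the main BH3-only protein of lymphocyte deletion. It had 8.45 and 8.55 in CLP_RAGhigh and 8.51 and 9.01 in CLP_RAGlow, with overlapping groups and a difference of -0.26 ± 0.31 that was -0.01 without CLP_RAGlow replicate 2. The differences over its 5 probe sets, 2 of them dim, lay between -0.46 and 0.89, with 3 lower and 2 higher. Their average was 0.07, so no direction can be given for this gene. Bid, which links caspase-8 to the mitochondrion, differed by -0.30 ± 0.37, or -0.09 without CLP_RAGhigh replicate 2, and Hrk by 0.04 ± 0.34. Pmaip1, which encodes NOXA, and Bik were the 2 dim genes of the 36, and their differences of 0.06 and 0.14 shrank to 0.01 and 0.04 with the offset of 32.

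Downstream of the mitochondrion, the apoptosome gene Apaf1 was lower and its partner Casp9 higher in CLP_RAGhigh. Apaf1 had 7.23 and 6.11 in CLP_RAGhigh and 7.91 and 7.55 in CLP_RAGlow. The groups did not overlap, the difference was -1.06 ± 0.48 (limma adjusted p = 0.958), and its other probe set, which was dim, was separated in that direction as well, at -0.43. Without CLP_RAGhigh replicate 2 the difference was -0.50. Casp9, the initiator caspase that the apoptosome activates, had 6.94 and 7.07 in CLP_RAGhigh and 6.28 and 4.82 in CLP_RAGlow. Its difference of 1.46 ± 0.55 was the largest of the 36 by size (limma adjusted p = 0.926). It was 0.73 without CLP_RAGlow replicate 2, and the 2 other Casp9 probe sets overlapped between the groups, each with a difference of 0.03.

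The proteins released with cytochrome c gave values in both directions. Endog, a mitochondrial nuclease, had 7.42 and 7.06 in CLP_RAGhigh and 8.36 and 7.53 in CLP_RAGlow, a difference of -0.70 ± 0.42 that was -0.29 without CLP_RAGlow replicate 1. Aifm1, which encodes apoptosis-inducing factor, had 9.19 and 9.64 against 9.01 and 9.11, a difference of 0.36 ± 0.27 that was 0.13 without CLP_RAGhigh replicate 2. The groups of both genes did not overlap, and neither passed. Cycs, which encodes cytochrome c itself, differed by -0.06 ± 0.12. Diablo, an antagonist of the inhibitors of apoptosis, differed by -0.31 ± 0.35, or -0.09 without CLP_RAGhigh replicate 1, while its other probe set gave 0.50.

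The promoters of the 4 genes at this core of the pathway are shown because Bcl2 and Mcl1, and Apaf1 and Casp9, act together in the cell and differed in opposite directions here. Each sequence is the 250 bases before the annotated start, 5′ to 3′ on the strand of the gene, from RefSeq on GRCm38.p6. The windows are chr1:106714291-106714540 on the minus strand (Bcl2), chr3:95658471-95658720 on the plus strand (Mcl1), chr10:91082744-91082993 on the minus strand (Apaf1), chr4:141793362-141793611 on the plus strand (Casp9). Capitals mark GC boxes (GGGCGG, either strand) and ETS motifs (CCGGAAG, either strand).
Bcl2: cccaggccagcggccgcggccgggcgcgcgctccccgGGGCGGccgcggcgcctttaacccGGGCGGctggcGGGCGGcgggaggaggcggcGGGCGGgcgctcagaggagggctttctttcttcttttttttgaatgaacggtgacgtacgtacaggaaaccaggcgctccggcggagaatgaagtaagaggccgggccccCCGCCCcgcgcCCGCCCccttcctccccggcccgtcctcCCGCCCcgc
Mcl1: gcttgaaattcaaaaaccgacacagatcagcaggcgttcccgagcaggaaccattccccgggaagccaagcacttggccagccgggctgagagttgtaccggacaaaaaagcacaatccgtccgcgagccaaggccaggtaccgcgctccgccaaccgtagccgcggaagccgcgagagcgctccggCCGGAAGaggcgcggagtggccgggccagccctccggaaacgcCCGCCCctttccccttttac
Apaf1: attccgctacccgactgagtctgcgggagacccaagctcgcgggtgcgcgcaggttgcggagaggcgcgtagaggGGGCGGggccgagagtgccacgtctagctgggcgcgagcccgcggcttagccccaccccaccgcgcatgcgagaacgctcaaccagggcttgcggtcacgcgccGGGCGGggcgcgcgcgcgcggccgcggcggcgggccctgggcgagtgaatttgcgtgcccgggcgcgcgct
Casp9: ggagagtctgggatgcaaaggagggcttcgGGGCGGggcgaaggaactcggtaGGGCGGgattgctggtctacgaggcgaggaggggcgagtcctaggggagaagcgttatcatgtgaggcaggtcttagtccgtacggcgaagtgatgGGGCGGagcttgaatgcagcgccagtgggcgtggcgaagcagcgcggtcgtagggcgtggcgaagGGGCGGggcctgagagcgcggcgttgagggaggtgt

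The Bcl2 window holds 7 GC boxes, that of Casp9 holds 4, that of Apaf1 holds 2 and that of Mcl1 holds 1. The Mcl1 window is also the only one of the 4 with the ETS motif. Among 32851 promoter windows of the same length, 32.7% hold the GC box and 6.91% the ETS motif. None of the 4 holds an E-box of the letters CAGCTG or CAGGTG, found in 27.7% of windows, or the FOXO motif GTAAACA, found in 3.17%, on either strand. The windows are rich in G and C, at 74.8% for Bcl2, 64.4% for Mcl1, 75.6% for Apaf1 and 66.0% for Casp9, against a median of 52.4%. These matches describe the letters only, and 33 of the 36 genes had an entry in the promoter table.

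The inhibitors of apoptosis that act in signalling, Birc2 and Birc3, were both higher by mean in CLP_RAGhigh. These encode cIAP1 and cIAP2, ubiquitin ligases that bind caspases and steer TNF receptor signals toward survival. Birc2 had 8.74 and 8.05 in CLP_RAGhigh and 8.05 and 7.84 in CLP_RAGlow, so that the nearest arrays of the groups were level. Its difference of 0.45 ± 0.37 was 0.10 without CLP_RAGhigh replicate 1. Birc3 had 8.49 and 8.37 against 8.04 and 8.00, a difference of 0.41 ± 0.30 that stayed between 0.35 and 0.47 when any 1 array was left out. Its second probe set gave -0.34, and the average was 0.04. Xiap, the direct caspase inhibitor, differed by -0.20 ± 0.34 on its brightest probe set and by 0.02 to 0.57 on the 6 others, of which 4 were dim.

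Apart from Casp9, the caspases showed no difference larger than about 1 SE on the probe set used for each gene. Casp1, which processes interleukin-1β in inflammasomes, had 8.14 and 7.55 in CLP_RAGhigh and 7.46 and 7.47 in CLP_RAGlow. The groups did not overlap, but the difference of 0.38 ± 0.37 was 0.08 without CLP_RAGhigh replicate 1. Casp8, the initiator of the death receptor route, had 9.03 and 7.87 against 8.47 and 8.72, so that both extremes belonged to CLP_RAGhigh. Its difference of -0.14 ± 0.45 was -0.72 without CLP_RAGhigh replicate 1 and 0.44 without CLP_RAGhigh replicate 2. Casp2, Casp4, Casp6 and Casp12 overlapped between the groups, with differences from -0.28 to 0.47. The highest of these, of the inflammatory caspase gene Casp4, turned to -0.55 without CLP_RAGlow replicate 2.

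Fadd and Tradd, the measured death receptor adaptors among the 36 genes, were lower by mean in CLP_RAGhigh. Fadd, which bridges death receptors to caspase-8, had 5.46 and 6.23 in CLP_RAGhigh and 6.28 and 6.35 in CLP_RAGlow. Its difference was -0.47 ± 0.41, or -0.08 without CLP_RAGhigh replicate 1, and its second probe set was separated as well, at -0.92. Tradd, the adaptor of TNF receptor 1, had 7.02 and 6.91 against 7.22 and 7.23, a difference of -0.26 ± 0.34. The 3 Tradd probe sets were all lower by mean in CLP_RAGhigh, the farthest at -0.86 and the nearest at -0.07. The nearest was dim and overlapped between the groups. The other 2 had both CLP_RAGhigh arrays below both CLP_RAGlow arrays, as did 15.2% of all probe sets. Neither gene passed.

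Cflar, the FLIP gene that blocks caspase-8, had 8.70 and 7.45 in CLP_RAGhigh and 7.51 and 6.97 in CLP_RAGlow. The groups overlapped, and the difference of 0.83 ± 0.52 was 0.21 without CLP_RAGhigh replicate 1. Over its 5 probe sets the difference lay between -0.87 and 0.83, with 3 higher and 2 lower, and 2 of the 5 were dim. The necroptosis genes Ripk3 and Mlkl differed by 0.01 ± 0.29 and -0.48 ± 0.49.

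The inhibitors of p53 were higher by mean in CLP_RAGhigh, but that of Mdm4 rested on 1 array. Mdm2, the ubiquitin ligase that degrades p53, had 8.81 and 8.45 in CLP_RAGhigh and 8.24 and 8.32 in CLP_RAGlow, a difference of 0.35 ± 0.30 with no overlap that was 0.17 without CLP_RAGhigh replicate 1. Its average over 3 probe sets was 0.07. Mdm4, which blocks p53 as a transcription factor, had 9.30 and 7.82 against 7.83 and 7.95. Only CLP_RAGhigh replicate 1 stood apart, and without it the difference of 0.67 ± 0.53 became -0.08. The 3 other Mdm4 probe sets were all lower in CLP_RAGhigh, from -0.55 to -0.15.

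**Figure D3:**
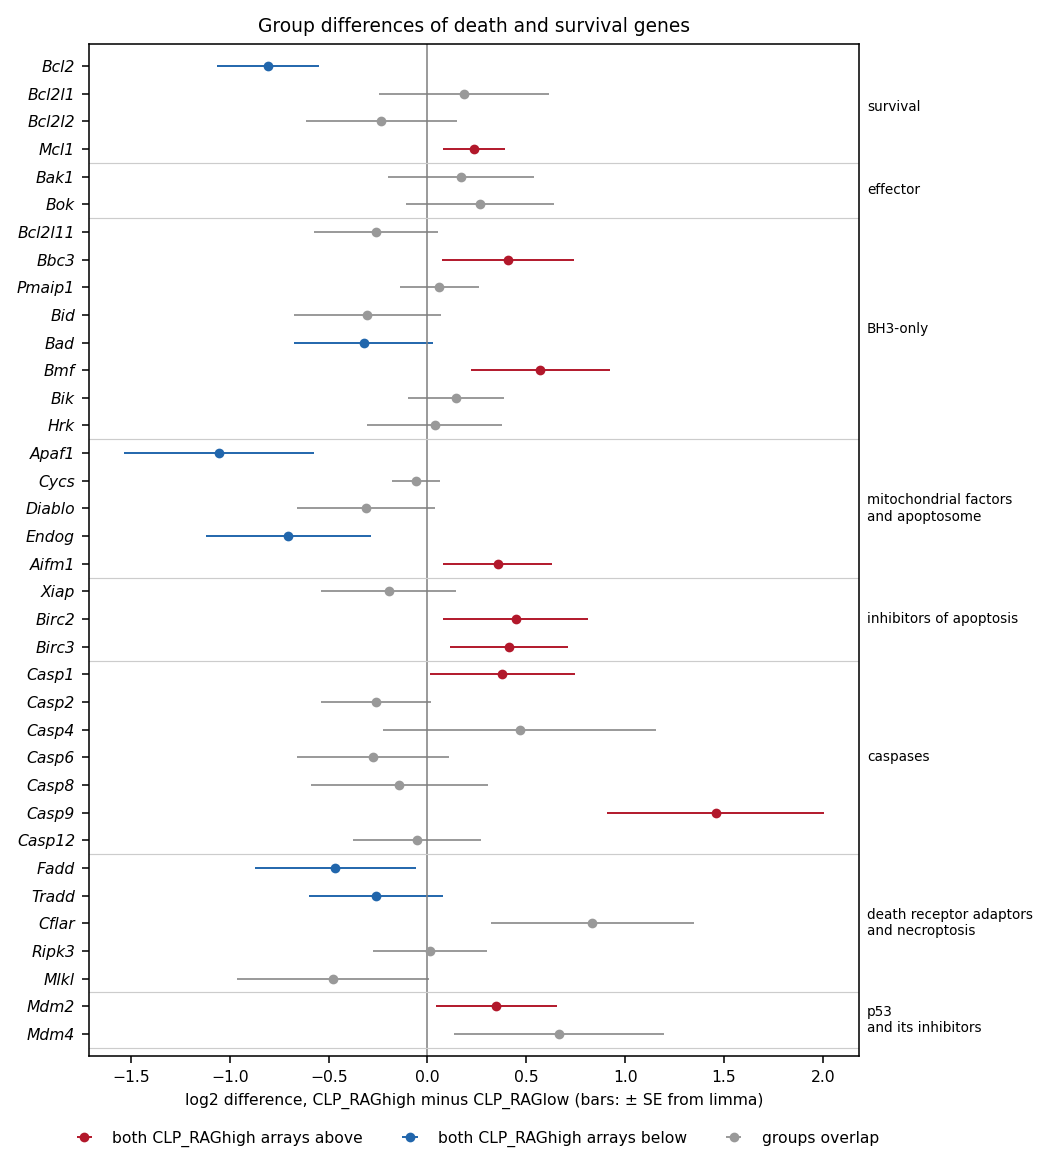
Log2 difference of each gene (CLP_RAGhigh minus CLP_RAGlow) with its SE from limma, for the probe set with the highest mean; red and blue mark genes with both CLP_RAGhigh arrays above (9 genes) or below (6 genes) both CLP_RAGlow arrays. Casp9 lies farthest to the right at 1.46 and Apaf1 farthest to the left at -1.06.

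With any 1 array left out, the difference kept its sign for 22 of the 36 genes and changed sign for 14. The 15 genes whose groups did not overlap kept theirs, which follows from that condition and is no sign of stability. Bcl2 was the one with the least change among the genes with a difference over 0.5 in size. The 14 genes not given by array here all overlapped between the groups, with differences from -0.48 to 0.47.

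**Figure D4:**
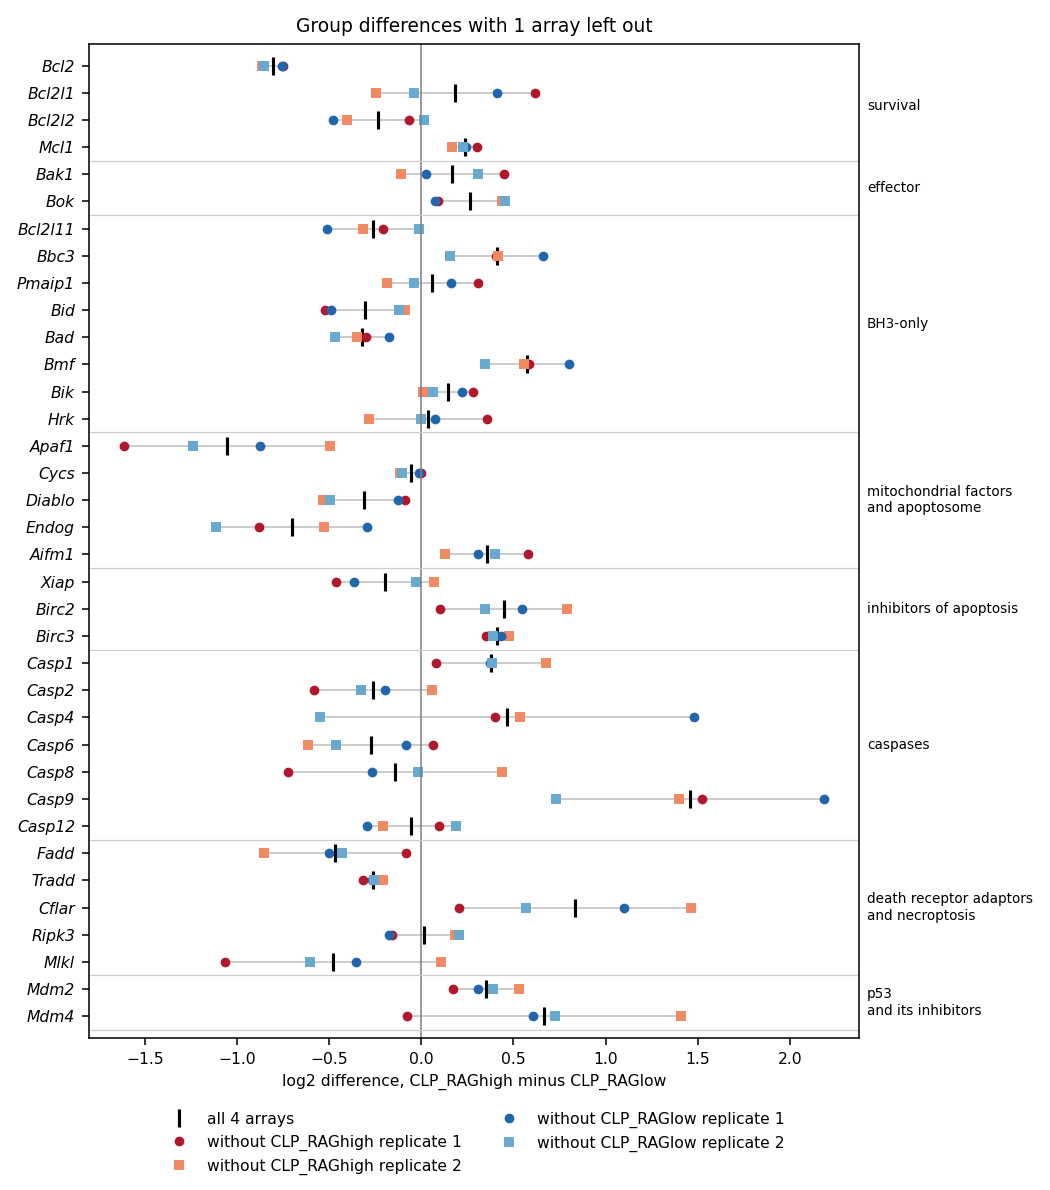
Log2 difference of each gene with all 4 arrays (black bar) and with each array left out in turn (symbols). The symbols of Bcl2 lie together between -0.86 and -0.75, whereas those of Casp9 spread from 0.73 to 2.19 and those of Mdm4 from -0.08 to 1.41.

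Further genes of the same pathways, from 4 lists of genes named for their function, showed 0 of 65 measured genes past the limma threshold, with 3 higher and 2 lower in CLP_RAGhigh at an unadjusted p under 0.05, beside 2.35% and 2.94% of all genes. The groups did not overlap in 21 of them, with CLP_RAGhigh higher in 9 and lower in 12, beside 15.4% and 15.8% of all genes. The list of further caspases, their inhibitors and substrates held 3 of the 5. Parp1, a DNA damage sensor, had 11.88 and 11.81 in CLP_RAGhigh and 10.91 and 10.91 in CLP_RAGlow. Its difference of 0.93 ± 0.13 stayed between 0.90 and 0.96 with 1 array left out, and its limma adjusted p was 0.282. All 4 Parp1 probe sets had a higher mean in CLP_RAGhigh, but their differences ran from 0.004 to 1.37, so the lowest was almost level.

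Birc5, which encodes survivin and is best known as a mitotic protein, had 4.49 and 5.75 in CLP_RAGhigh and 6.73 and 6.67 in CLP_RAGlow. Its difference of -1.58 ± 0.50 was -0.95 without CLP_RAGhigh replicate 1. It went in the direction of the 5 separated G2 and M phase genes given above, and their part in it was not tested. Pycard, the ASC adaptor of inflammasomes, had 8.31 and 8.05 against 8.996 and 9.04, a difference of -0.84 ± 0.29 with all 3 probe sets lower. Casp1, which ASC recruits, was instead higher by mean.

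Among 20 targets of p53, 8 were higher and 12 lower by mean in CLP_RAGhigh, a median of -0.07, so the list as a whole had no common direction. Its 2 genes with an unadjusted p under 0.05 were both higher, where 2.35% of all genes were higher and 2.94% lower at that p. Cdkn1a, the p21 inhibitor of cyclin-dependent kinases, had 8.37 and 8.27 in CLP_RAGhigh and 7.34 and 6.97 in CLP_RAGlow, a difference of 1.17 ± 0.34. Trp53inp1, a p53-inducible nuclear protein, had 11.58 and 11.66 against 10.49 and 11.02, a difference of 0.86 ± 0.21. Both probe sets of each gene were higher. Zmat3, an RNA-binding target of p53, went the other way, at -1.15 ± 0.53. It was -0.45 without CLP_RAGhigh replicate 2 and -0.54 with the offset of 32.

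The 12 measured further relatives and partners of the BCL2 family had 6 higher and 6 lower genes. The groups overlapped in all 12, where 15.4% of all genes had CLP_RAGhigh above and 15.8% had it below. Bcap31, Bnip1 and Bcl2l15 had the smallest p, with differences of -0.33 ± 0.22, -0.85 ± 0.71 and 0.16 ± 0.17, the last from a dim gene, and that of Bcap31 was -0.07 without CLP_RAGhigh replicate 1. Of 17 genes of death receptors and TNF signalling, 8 were higher and 9 lower. Traf1, an adaptor of TNF receptors and dim in both groups, differed by -1.01 ± 0.46, by -0.24 with the offset and by -0.32 without CLP_RAGlow replicate 2. The other Traf1 probe set gave 0.11. Rbck1, of the linear ubiquitin ligase, differed by 0.55 ± 0.36, or 0.15 without CLP_RAGlow replicate 1, and Tnfrsf1a, the TNF receptor that TRADD binds, by -0.55 ± 0.38, or -0.22 without CLP_RAGhigh replicate 2 and -0.27 without CLP_RAGlow replicate 1. In these lists 0 genes had an unadjusted limma p under 0.05, beside 2.35% of all genes higher and 2.94% lower.

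**Figure D5:**
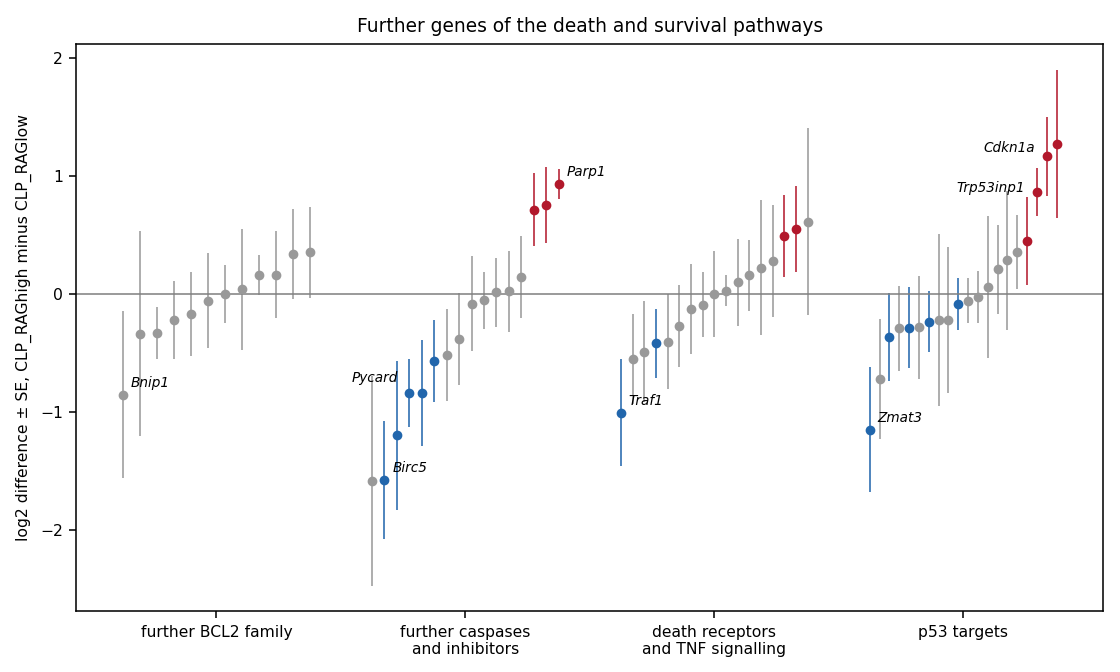
Log2 difference (CLP_RAGhigh minus CLP_RAGlow, ± SE from limma) of 65 further genes in 4 lists, ordered within each list; red and blue mark genes with both CLP_RAGhigh arrays above or below both CLP_RAGlow arrays. Parp1 at 0.93, Cdkn1a at 1.17 and Trp53inp1 at 0.86 stand above 0, and Birc5 at -1.58 and Pycard at -0.84 stand below. No gene of the further BCL2 family is separated, beside 15.4% above and 15.8% below among all genes.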

How the data were processed

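The deposited values are probe-set intensities on a linear scale, from 2.35 to 19893, which the authors made with the RMA algorithm from Affymetrix MOE430_2 arrays, per the design text of the series. The sources used here do not give the RMA software, its version or filters. RMA values do not separate low expression from background, and dual amplification from few cells favours 3′ ends. Log2 was taken, and no further normalization was applied. The platform annotation pairs 34945 probe sets with a single gene, and these were used. It pairs 932 with several genes, and 9160 have no gene there.

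Groups were compared with limma 3.58.1 in R 4.3.3 (lmFit, eBayes with intensity trend, two-sided), fitted over all 18193 genes with Benjamini-Hochberg adjustment at 0.05. Residual degrees of freedom were 2 and prior ones 3.75. The fit was tested on simulated data, with known changes given to genes above the median intensity. Of 500 genes changed by 1 log2 unit 0.6% passed the adjusted threshold, and of 500 changed by 2 units 15.8% did. A gene that truly differs by such a size would thus mostly not pass here. Median intensities were 14.5 to 14.8 per array, and the number of arrays limits the precision. Values by array are given for genes with an unadjusted p under 0.05, genes whose groups do not overlap, the largest difference of each role and core genes of each role, and for other lists up to 3 genes with the smallest p are named. The genes and lists were chosen with earlier results of these data known. Alternatives were an offset, averaged or filtered probe sets, 2 scalings, no trend, a brightness filter, a replicate block and leaving out arrays. Figures were drawn with matplotlib 3.10.9.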

Additional observations from a re-analysis of the deposited data

How the results depend on the processing

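Of the 36 genes and the further pathway genes named, 53 together, 0 passed the limma threshold under any alternative that kept all 4 arrays. The smallest adjusted p among them was 0.208, with quantile normalization. Rag1 and the marker genes were not followed through the alternatives. Over all genes, where 0 passed, 2 passed with probe sets averaged, 3 with quantile normalization, 1 with dim genes left out and 7 with the replicate block, and 0 of these were among the 36 genes or the 65 further ones. The replicate numbers are not said to pair samples, and the deviations of the first replicates correlated at -0.02 across genes. The median of the 36 genes, 0.02, was 0.063 with probe sets averaged, -0.056 without cross-hybridising probe sets and -0.021 with dim genes left out. With 1 array left out it ran from -0.0073 to 0.071, that of the survival genes from -0.32 to 0.12 and that of the BH3-only and effector genes from -0.10 to 0.29. The counts of separated genes then ran from 12 to 14 above and from 12 to 14 below, as fewer arrays separate more easily. Averaging the probe sets reversed Bcl2l2 (0.040), Bcl2l11 (0.066), Bid (0.028), Diablo (0.094), Xiap (0.16), Casp12 (0.054) and Mdm4 (-0.074), and leaving out cross-hybridising ones reversed Bmf (-0.076) and Mdm4 (-0.15). Leaving out 1 array reversed further genes, with ranges from -0.25 to 0.62 for Bcl2l1, -0.48 to 0.013 for Bcl2l2, -0.11 to 0.45 for Bak1, -0.19 to 0.31 for Pmaip1, -0.28 to 0.36 for Hrk, -0.46 to 0.071 for Xiap, -0.58 to 0.060 for Casp2, -0.55 to 1.48 for Casp4, -0.61 to 0.062 for Casp6, -0.72 to 0.44 for Casp8, -0.30 to 0.19 for Casp12, -0.18 to 0.20 for Ripk3, -1.07 to 0.11 for Mlkl, -0.077 to 1.41 for Mdm4 and -1.80 to 0.098 for Bnip1. The cause was not tested.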

Other observations

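The list of further caspases, inhibitors and substrates had 16 measured genes, and the groups did not overlap in 3 with CLP_RAGhigh higher and 5 with it lower, beside 15.4% and 15.8% of all genes. Of these, 5 were not described above and were chosen after their values were seen. Birc6, a giant inhibitor of apoptosis, had log2 intensities of 9.22 and 9.76 in CLP_RAGhigh and 8.51 and 8.96 in CLP_RAGlow, a difference of 0.75 ± 0.32 that was 0.48 without CLP_RAGhigh replicate 2. Its 6 probe sets gave differences from -0.33 to 1.15, of which 5 were above 0, and their average was 0.49. Htra2, a mitochondrial protease that removes inhibitors of apoptosis, was also higher, with 8.39 and 8.62 against 7.88 and 7.69. Toward CLP_RAGlow, Dffa, the inhibitor of the caspase-activated nuclease, differed by -1.20 ± 0.63, but by -0.26 without CLP_RAGhigh replicate 2. The other Dffa probe set gave -0.12. Pidd1, a p53-inducible activator of caspase-2, differed by -0.84 ± 0.45, and by -0.30 without CLP_RAGlow replicate 2. Naip6, a bacterial sensor gene of the inflammasome, differed by -0.56 ± 0.35, and by -0.22 without CLP_RAGlow replicate 2. None of the 5 had an unadjusted limma p under 0.05.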
